A study of Mus musculus with 6 samples.

Results

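The 10 genes Stab1, Cd36, Msr1, Marco, Scarb1, Scarb2, Cd68, Cd163, Colec12 and Olr1 encode scavenger receptors for cell debris and modified lipoproteins. They form a list of gene names, and each symbol was matched in the deposited tables, which list 56092 gene symbols. Of the 10 genes, 7 passed the filter on low counts, Olr1 lay at 2 to 5 counts per library, and Marco and Cd163 had 0 counts in all 6 libraries.

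Scavenger receptors are structurally unrelated proteins that share the ability to bind polyanionic or oxidised ligands, among them oxidised low-density lipoprotein, apoptotic cells and cell fragments. They are sorted into classes by structure: class A receptors (Msr1, Marco, Colec12) are trimers with a collagenous stalk, class B receptors (Cd36, Scarb1, Scarb2) cross the membrane at both ends, Cd68 is a heavily glycosylated protein of late endosomes and lysosomes, Olr1 is a C-type lectin, Stab1 belongs to the stabilins and Cd163 has repeated cysteine-rich domains. In macrophages they take up debris and lipoprotein cholesterol, and several of them pass their cargo directly to the lysosome.

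RNA was sequenced from RAW264.7 cells, a mouse macrophage-like line, in 2 groups of 3 libraries. The control group carried a control vector (shNC), which the labels call empty and the study's methods give a negative-control hairpin, and the other group a short hairpin RNA against Trem2 (shTrem2), a lipid-sensing receptor of macrophages. Both groups were made by lentiviral transduction and drug selection as stable lines with a GFP marker, both were treated for 24 hours with 20 ng/ml of IL-4, and both were then kept with debris of TCMK-1 mouse tubular epithelial cells for 24 hours. The labels name neither the hairpin used nor separate cultures for the replicates. The study's methods give 2 hairpins against Trem2, and which of them these libraries carry is unknown. Each group may therefore be 1 line, and the p-values measure only the spread between these libraries, which may be technical. No library without debris or without IL-4 was analysed here, so the comparison asks how the receptors differed between the 2 groups under debris, not how they answered to it. In bulk RNA, fewer cells of a kind and less RNA per cell cannot be told apart.

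Total counts ranged from 16054486 to 18290532 in shNC and from 19545744 to 19835186 in shTrem2, so that every shTrem2 library was the deeper. Trem2 itself had 114, 122 and 144 CPM, which are counts scaled to a common library size with TMM factors, in shNC and 64.7, 63.2 and 80.2 CPM in shTrem2, a log2 fold change of -0.87 (SE 0.0939, edgeR FDR = 3.39e-06), and its FPKM, which is also scaled by transcript length, went from 178 ± 28.5 to 41.7 ± 4.14 (SD, n = 3 each). Of its 4 transcript rows, 3 fell and 1 rose (log2 fold change 0.74, edgeR FDR on transcript rows = 0.00856). The edgeR FDR here is the p-value of edgeR's quasi-likelihood test after Benjamini-Hochberg adjustment over all 13528 genes tested, a gene is called when it is under 0.05, and a differentially expressed gene (DEG) is a called gene with a fold change over 1.5. All 10 macrophage markers checked were tested and called, 8 higher and 2 lower in shTrem2, where 57.4% of all genes tested were called, 28.8% higher and 28.6% lower. Their summed level was 5166 to 6112 CPM in shNC and 10276 to 11649.8 CPM in shTrem2. Most of that rise was in Lyz2, the macrophage lysozyme, which went from 2805 ± 356 to 7365 ± 544 CPM (SD, n = 3 each), and the other 9 summed to 2643 to 2907 CPM in the control and 3449 to 3735 CPM in the knockdown libraries. The 2 lower were Itgam and Adgre1. Chil3 and Retnla, genes that IL-4 induces in mouse macrophages, had 0 counts in all 6 libraries although the labels give IL-4 treatment for each. Where no read was counted, up to 3 counts are still possible, which is 0.153 to 0.189 CPM before TMM scaling and covers counting error only.

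Of the 7 receptors tested, all were called, 5 higher (Colec12, Cd36, Scarb2, Scarb1, Cd68) and 2 lower (Stab1, Msr1) in shTrem2. Beside the 57.4% of all genes tested that were called, 28.8% higher and 28.6% lower, a call by itself was common in this comparison. DEGs were 3 of the 7 (Stab1, Cd36, Colec12), against 21.8% of all genes tested. Colec12 and Cd36 were DEGs higher in shTrem2, as were 9.46% of all genes, and Stab1 was a DEG lower in shTrem2, as were 12.4%. For 6 of the 7 the shNC and shTrem2 values did not overlap, all but Cd68, which was so for 63.8% of all genes tested. The median log2 fold change of the 7 receptors was 0.16, and that of all genes tested was within 0.01 of 0. Stab1 passed the filter through its shNC libraries, since 1 of its 3 shTrem2 libraries reached the filter's 0.534 CPM, while the other 6 reached it in all 6 libraries.

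**Figure D1:**
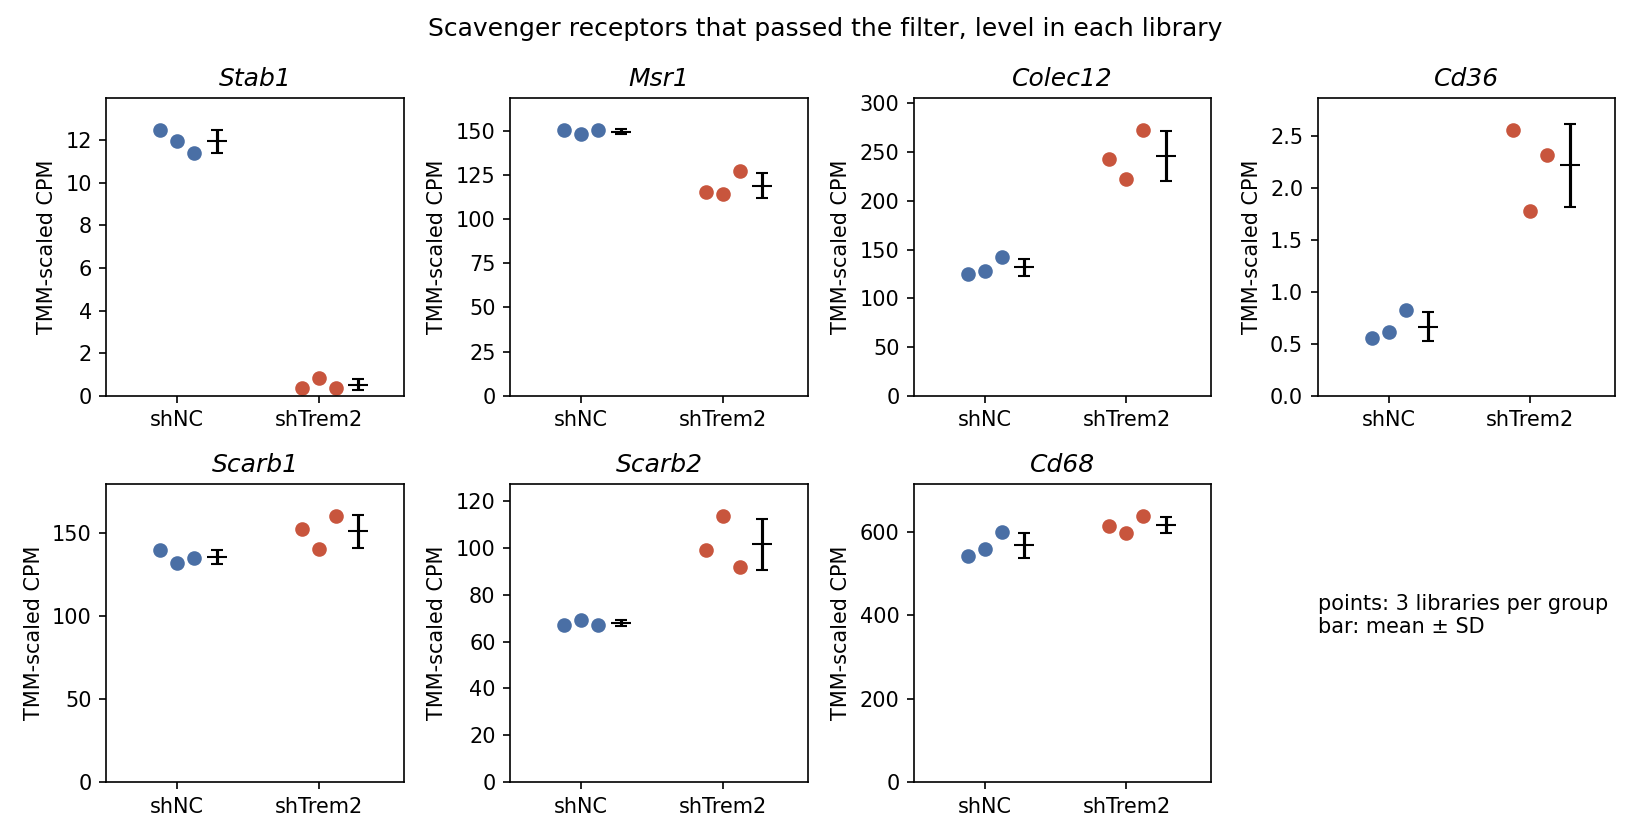
TMM-scaled CPM of the 7 receptors that passed the filter, 1 point per library (3 shNC in blue, 3 shTrem2 in red) with the mean ± SD as a black bar, each panel on its own axis from 0. Stab1 lies between 11.4 and 12.5 CPM in shNC and below 1 CPM in shTrem2, Colec12 and Scarb2 are higher in every shTrem2 library, and the Cd68 groups overlap.

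Per transcript length, the receptors spanned a wide range of levels, from Cd68, far above the rest, to Olr1, below 0.1 FPKM in every library. Cd68 stood first in both groups, at 639.7 ± 33.0 FPKM in shNC and 687 ± 23.8 FPKM in shTrem2 (SD, n = 3 each), and held 74.2% to 77.0% of the summed FPKM of the 10 genes in every library. In shNC it was followed by Msr1 (82.2 ± 1.86 FPKM), Scarb1 (62.3 ± 1.90), Colec12 (35.4 ± 2.62), Scarb2 (15.6 ± 0.385), Stab1 (7.13 ± 5.97), Cd36 (0.323 ± 0.0551) and Olr1 (0.0667 ± 0.0252), and no neighbours in this order overlapped. In shTrem2 the FPKM order was Msr1 (74.2 ± 1.07), Scarb1 (68.0 ± 4.67), Colec12 (67.0 ± 9.93), Scarb2 (22.8 ± 2.48), Cd36 (0.777 ± 0.166), Stab1 (0.143 ± 0.0586) and Olr1 (0.0467 ± 0.0153). There Colec12, at 58.8 to 78.1 FPKM, overlapped both Scarb1 (63.0 to 72.3) and Msr1 (73.3 to 75.4) and could not be ordered against either, and Stab1 and Cd36 had changed places.

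**Figure D2:**
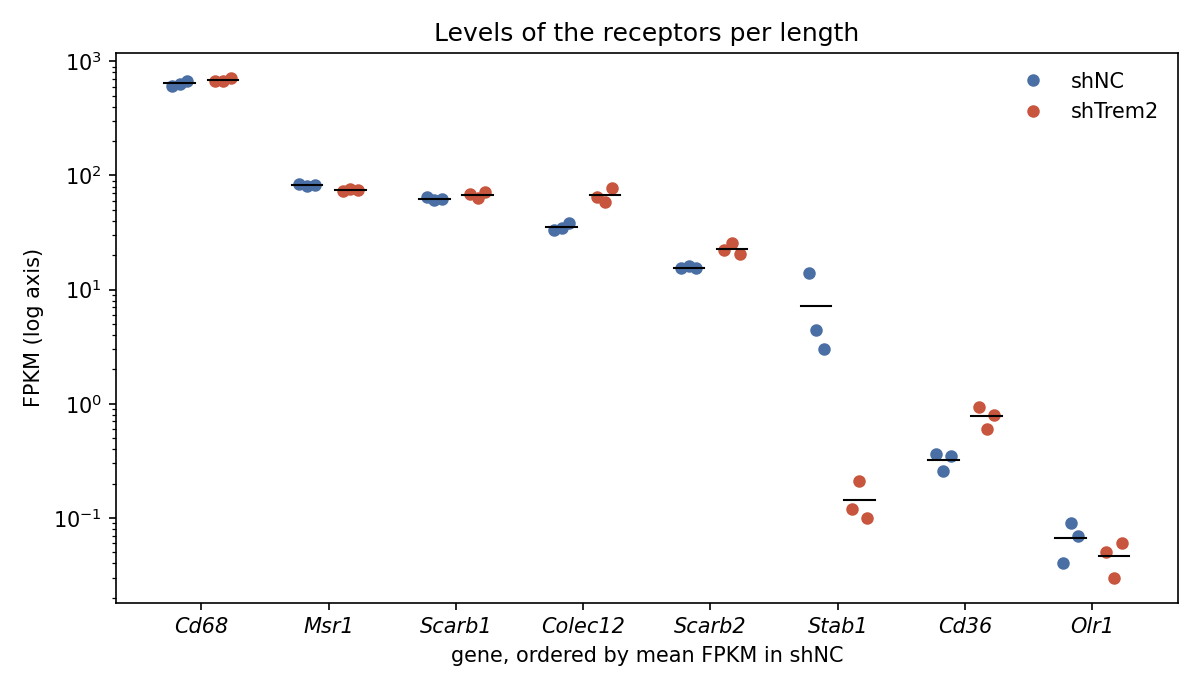
Deposited FPKM of the 8 receptors with a value above 0, on a log axis, ordered by their mean in shNC, with 1 point per library (shNC in blue, shTrem2 in red) and a line at each group mean; Marco and Cd163 are at 0 in all 6 libraries and cannot be drawn on this axis. Cd68 is the highest in both groups, Colec12 reaches the level of Scarb1 in shTrem2, and Stab1 drops below Cd36 there.

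The promoters of 7 of the 10 genes were present in the RefSeq table used here (build GRCm38.p6). Each was a window of 250 bases before to 50 bases after the RefSeq start site. They were searched on both strands for 4 motifs: PU.1 (AGGAAGT), AP-1 (TGANTCA), the antioxidant response element (TGACNNNGC) and the E-box of lysosomal genes (TCACGTGA). The windows of 3 of these genes are shown because they carry the largest fall (Stab1), the receptor with the highest level (Cd68) and a lysosomal receptor that rose (Scarb2). Capitals mark motif matches.
Stab1, chr14:31168592-31168891, minus strand: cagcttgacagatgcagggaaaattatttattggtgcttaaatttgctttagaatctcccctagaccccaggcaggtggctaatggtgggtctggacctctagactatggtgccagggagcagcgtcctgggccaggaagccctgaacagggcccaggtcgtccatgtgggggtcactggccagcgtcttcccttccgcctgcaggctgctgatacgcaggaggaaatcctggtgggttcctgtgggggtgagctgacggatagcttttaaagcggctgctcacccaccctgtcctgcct
Cd68, chr11:69666121-69666420, minus strand: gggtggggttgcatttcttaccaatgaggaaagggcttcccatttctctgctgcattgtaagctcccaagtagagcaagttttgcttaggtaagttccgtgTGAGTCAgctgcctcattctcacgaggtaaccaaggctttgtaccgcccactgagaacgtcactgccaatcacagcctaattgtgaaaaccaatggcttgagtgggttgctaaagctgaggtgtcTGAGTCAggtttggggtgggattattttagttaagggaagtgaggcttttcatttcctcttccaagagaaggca
Scarb2, chr5:92505608-92505907, minus strand: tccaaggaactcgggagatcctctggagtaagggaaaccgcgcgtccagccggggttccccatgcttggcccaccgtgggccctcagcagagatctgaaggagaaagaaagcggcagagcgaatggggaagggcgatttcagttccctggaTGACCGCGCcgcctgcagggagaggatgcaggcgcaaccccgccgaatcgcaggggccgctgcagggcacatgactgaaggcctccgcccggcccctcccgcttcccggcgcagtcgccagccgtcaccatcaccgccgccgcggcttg
The Cd68 window held TGAGTCA, an AP-1 match, at bases -149 and -24 from the RefSeq start site. Of all 32851 windows, 7.81% held an AP-1 match. The Scarb2 window held TGACCGCGC at base -99, a match to the antioxidant response element, which 12.4% of all windows held. The Stab1 window held none of the 4 motifs, nor did those of Cd36, Marco and Cd163, and the Olr1 window held 1 AP-1 match. The Cd36 window, chr5:17835847-17836146, lay inside the annotated gene (chr5:17781690-17888801, minus strand), away from its annotated start. PU.1 letters were found in 9.35% and the lysosomal E-box in 0.974% of all windows, and in none of the 7. The 3 windows also differed in base composition, with 28 CpG dinucleotides in Scarb2, 4 in Cd68 and 7 in Stab1, beside a median of 7 over all windows.

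Among the class A receptors, Msr1 was lower in shTrem2 while Colec12 was higher. Msr1, the macrophage receptor for acetylated and oxidised low-density lipoprotein, had 151, 148 and 150.3 CPM in shNC and 115, 114 and 127 CPM in shTrem2. Each shTrem2 library was lower than any shNC library. The difference was small, with a log2 fold change of -0.33 (SE 0.0511, 95% interval -0.44 to -0.22, edgeR FDR = 8.85e-05), a fold of 1.26 that did not reach the DEG threshold. On the FPKM scale the groups did not overlap either, at 80.1 to 83.8 and 73.3 to 75.4 FPKM, but the log2 ratio of their means was -0.15.

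The deposited counts have 1 row per transcript, and the rows of Msr1 could be matched to its 5 annotated transcripts (GENCODE M21, GRCm38, chr8:39581685-39642673, minus strand), since their lengths rebuilt the deposited FPKM within 1.03% in all 6 libraries. Most counts fell on 2 of them. Msr1-201 (1424 nt, 10 exons) encodes 458 residues, the length of the type I receptor, which ends in a cysteine-rich domain, and Msr1-202 (3636 nt, 9 exons) encodes 354 residues, the length of the type II receptor, which lacks that domain. Msr1-202 had 102, 99.9 and 106 CPM in shNC and 63.7, 66.8 and 80.1 CPM in shTrem2, with no overlap between the groups. Its log2 fold change was -0.55 (SE 0.0889, edgeR FDR on transcript rows = 0.00657), where 22.3% of all transcript rows tested were called. Msr1-201 had 47.7, 45.9 and 42.2 CPM in shNC and 48.4, 42.8 and 44.0 CPM in shTrem2, which overlapped, with a log2 fold change of -0.01 (95% interval -0.18 to 0.17, edgeR FDR on transcript rows = 0.970).

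The share of Msr1 counts on Msr1-202 was 67.3%, 67.2% and 69.9% in shNC and 54.8%, 58.2% and 62.8% in shTrem2. The groups did not overlap, but 3 against 3 libraries cannot give an exact permutation p below 0.1. The diffSpliceDGE test of edgeR compares the fold change of each row with that of its gene as a whole, and called 1.71% of rows. Neither transcript was called in it. The unadjusted p was 0.0756 and FDR = 0.711 for Msr1-202, and the unadjusted p was 0.0229 and FDR = 0.399 for Msr1-201. Msr1-202 held most of the counts of the gene, so it was compared largely with itself. The 2 transcripts were not tested against each other, and whether they differ in behaviour was not decided. Per length, with the deposited FPKM divided over the rows, Msr1-201 was the more abundant, at 40.7 ± 2.84 FPKM in shNC and 39.6 ± 2.29 FPKM in shTrem2, beside 30.6 ± 0.655 and 20.5 ± 2.67 FPKM for Msr1-202 (SD, n = 3 each). The other 3 Msr1 rows held at most 1.09% ± 0.422 and 2.05% ± 0.590 of the counts each (mean ± SD of shNC and shTrem2, n = 3 each). Per length, one of them, Msr1-205 (421 nt), took 11.8% ± 3.59 of the gene's FPKM in shNC and 15.2% ± 4.56 in shTrem2 (SD, n = 3 each). That value rests on 11.5 to 29.1 estimated counts per library and on a length shortened by 320 to 333 nt to rebuild the FPKM.

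**Figure D3:**
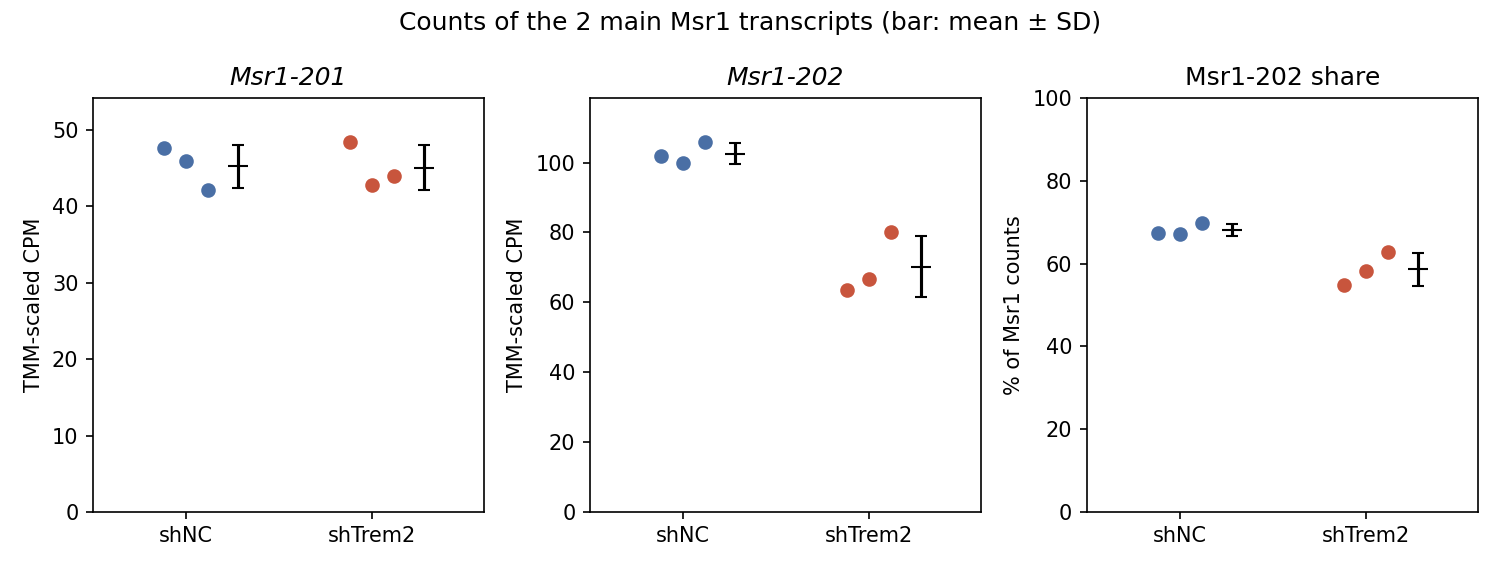
TMM-scaled CPM of Msr1-201 and Msr1-202 and the percent of Msr1 counts on Msr1-202, 1 point per library (shNC in blue, shTrem2 in red) with the mean ± SD as a black bar, all axes from 0. Msr1-201 overlaps between the groups at 42.2 to 48.4 CPM, while every shTrem2 library is below every shNC library for Msr1-202 and for its share.

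Colec12, a collectin-type scavenger receptor with a carbohydrate-binding domain, had 125, 128 and 142 CPM in shNC and 243, 222 and 273 CPM in shTrem2. The lowest shTrem2 library exceeded the highest shNC library by a wide margin. Its log2 fold change was 0.90 (SE 0.0706, 95% interval 0.75 to 1.05, edgeR FDR = 1.66e-07), a 1.87-fold rise, and it was a DEG under all alternatives that were run with the DEG fold of 1.5. Both of its main transcript rows rose, the row matched to Colec12-204, which encodes 742 residues, by 0.84 and the row matched to Colec12-201, which is annotated as a target of nonsense-mediated decay, by 0.92 on the log2 scale (edgeR FDR on transcript rows = 0.00154 and 9.19e-04). Colec12-201 held 71.5% ± 1.34 of the gene's counts in shNC and 72.3% ± 1.29 in shTrem2 (SD, n = 3 each). Marco, the class A receptor that binds bacteria and particles, had 0 counts in all 6 libraries and was not detected.

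The class B receptors were all higher in shTrem2, from very different levels. Cd36, the receptor for oxidised low-density lipoprotein, long-chain fatty acids and thrombospondin, had 9, 11 and 15 counts in shNC and 49, 34 and 45 in shTrem2, or 0.559, 0.610 and 0.825 CPM against 2.56, 1.78 and 2.32 CPM. The groups did not overlap, yet Cd36 stayed below 1 FPKM in every library. The log2 fold change was 1.72 (SE 0.317, 95% interval 1.04 to 2.40, edgeR FDR = 3.88e-04). On the log2(FPKM + 1) scale, which understates low genes, it was 0.42. One unassigned transcript row of Cd36 went from 0 to 3.29 estimated counts in shNC to between 25.6 and 32.4 in shTrem2, the group through which it passed the filter (edgeR FDR on transcript rows = 0.0205), and another did not pass the test (edgeR FDR on transcript rows = 0.902).

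Scarb1, which exchanges cholesterol with high-density lipoprotein and binds apoptotic cells, had 139.5, 131 and 135 CPM in shNC and 152, 140.2 and 159.9 CPM in shTrem2. Its lowest shTrem2 library lay just above its highest shNC library. The log2 fold change was 0.16 (SE 0.0540, 95% interval 0.04 to 0.27, edgeR FDR = 0.0237), and the call was lost in 8 of 18 alternatives. Without shNC replicate 2 the edgeR FDR was 0.132, without shNC replicate 3 it was 0.0504, without shTrem2 replicate 1 it was 0.0728 and without shTrem2 replicate 3 it was 0.112.

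Scarb2, a receptor of the lysosomal membrane, had 67.0, 69.3 and 67.2 CPM in shNC and 99.2, 114 and 92.0 CPM in shTrem2. Every shTrem2 library lay above every shNC library, and the 3 shNC libraries spread less than the 3 shTrem2 libraries. The log2 fold change was 0.58 (SE 0.0700, 95% interval 0.43 to 0.73, edgeR FDR = 9.01e-06). Its fold of 1.499 lay just under the DEG threshold of 1.5, and it was a DEG with DESeq2 and when any of shNC replicate 2, shTrem2 replicate 1 or shTrem2 replicate 3 was left out. Nearly all of its counts, 99.4% to 99.9% per library, fell on Scarb2-201, which encodes 478 residues.

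Cd68, a lysosomal glycoprotein widely used to mark macrophages, had 544, 559.7 and 601 CPM in shNC and 616, 599 and 638 CPM in shTrem2. The groups overlapped, since shNC replicate 3 exceeded shTrem2 replicate 2. The log2 fold change was 0.12 (SE 0.0489, 95% interval 0.02 to 0.23), and its edgeR FDR of 0.0489 lay at the threshold. The call was lost in 12 of 18 alternatives, among them leaving out shNC replicate 1 (0.08, edgeR FDR = 0.258), shNC replicate 2 (0.10, 0.189), shTrem2 replicate 1 (0.13, 0.104) or shTrem2 replicate 3 (0.09, 0.130). Between 98.0% and 99.6% of its counts fell on Cd68-201, which encodes 326 residues.

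Stab1, an endocytic receptor for acetylated low-density lipoprotein, the matrix protein SPARC and phosphatidylserine on dying cells, showed the largest change of the 10 genes. It had 201, 216 and 207 counts in shNC and 7, 16 and 7 in shTrem2, or 12.5, 12 and 11.4 CPM against 0.365, 0.836 and 0.361 CPM. The shNC libraries lay close together, and each shTrem2 library was above the floor of 3 counts. The log2 fold change was -4.50 (SE 0.237, 95% interval -5.02 to -3.99, edgeR FDR = 4.41e-09). The deposited FPKM of Stab1 was less even than its counts, at 14.0, 4.42 and 3 FPKM in shNC and 0.12, 0.21 and 0.1 FPKM in shTrem2, and on the log2(FPKM + 1) scale its log2 fold change was -2.59. Its 13 transcript rows could not be matched to annotated transcripts, as the best match missed the FPKM by 57.1%. The 4 tested rows all had a negative log2 fold change, from -3.15 to -5.06, and 3 of them were called (edgeR FDR on transcript rows of 2.97e-04, 0.00984 and 0.0147), while the fourth had FDR = 0.0502. These rows passed the filter through their shNC libraries and had at most 8.33 estimated counts in any shTrem2 library. Their calls therefore describe the rows and add no separate evidence to the gene sum. The 3' end of Stab1 (GRCm38, chr14:31139013-31168641, minus strand) shares 112 bases with Nt5dc2 on the other strand, whose log2 fold change was -0.30.

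The 5 tested genes whose centred log2 CPM over the 6 libraries lay closest to Stab1 by Euclidean distance were Slpi, H2-Eb1, Fendrr, Epha2 and Septin1. Slpi, a secreted inhibitor of neutrophil serine proteases, was the nearest at a distance of 0.833 and went from 63.2 ± 3.87 to 3.65 ± 0.367 CPM, and H2-Eb1, an MHC class II chain, lay at 0.931 and went from 7.17 ± 0.406 to 0.277 ± 0.0277 CPM (SD, n = 3 each). The distances of the other 3 were 1.03 to 1.14. These genes were picked for likeness in the same libraries, so their fall is a description.

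Cd163, the receptor for haemoglobin bound to haptoglobin, was not detected, with 0 counts in all 6 libraries. Olr1, the lectin-like receptor for oxidised low-density lipoprotein, had 2, 5 and 4 counts in shNC and 3, 2 and 4 in shTrem2, at or near the floor of 3 counts, and was not tested. Its values overlapped fully, and no difference was detectable at this depth.

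Other scavenger receptors were measured beside the 10. Of 15 listed, 14 had a row in the table and 8 were tested. Of these 8, 5 were called higher and none lower, beside 28.8% and 28.6% of all genes tested, with a median log2 fold change of 0.30. Cd5l, also on this list, was lower in every shTrem2 library but did not pass the filter, and its counts are given under other observations. The 3 DEGs, all higher as were 9.46% of all genes tested, were Mrc1, the mannose receptor (log2 fold change 2.76, SE 0.342, edgeR FDR = 1.22e-05), Scarf1, a receptor for acetylated low-density lipoprotein (0.79, SE 0.256, edgeR FDR = 0.0172), and Lgals3bp, a secreted protein with a cysteine-rich scavenger domain (0.67, SE 0.0441, edgeR FDR = 3.37e-08). Mrc1 rose from 0.472 ± 0.264 to 3.28 ± 0.414 CPM, having passed the filter through its shTrem2 libraries, since 1 of its 3 shNC libraries reached 0.534 CPM, and Scarf1 from 1.49 ± 0.227 to 2.58 ± 0.401 CPM, both low, while Lgals3bp rose from 261 ± 8.59 to 415 ± 7.92 CPM (SD, n = 3 each).

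Genes that handle lipoprotein lipid after uptake were counted next. Of 17 listed, 15 were tested, 5 were called higher and 6 lower, beside 28.8% and 28.6% of all genes tested, which is near the background, and the median log2 fold change was 0.01. The 2 DEGs, where 21.8% of all genes tested were DEGs, were Fabp5, a fatty acid binding protein, which rose from 257 ± 5.13 to 581 ± 58.8 CPM (log2 fold change 1.18, SE 0.0629, edgeR FDR = 5.07e-09), and Apoc2, the cofactor of lipoprotein lipase, which fell from 1.43 ± 0.389 to 0.659 ± 0.297 CPM (log2 fold change -1.10, SE 0.386, edgeR FDR = 0.0250; SD, n = 3 each).

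Of 22 listed symbols of partners and cargo handling, 18 were tested, 8 were called higher and 6 lower, beside the same 28.8% and 28.6%, and the median log2 fold change was 0.10. Among genes whose proteins assemble with Cd36, the DEG was Tlr2, a toll-like receptor for lipopeptides, which rose from 97.4 ± 11 to 185 ± 5.93 CPM (log2 fold change 0.92, edgeR FDR = 8.33e-08). Tlr4 (0.47), Cd9 (0.36), Cd81 (0.52) and the kinase Lyn (0.31) were also called higher, the kinase Fyn (-0.22) and Vav1 (-0.18) were called lower, and Tlr6 (0.10) and Vav3 (0.09) did not pass the test. Of the sorting partners of Stab1, Chid1 (-0.20) and Gga3 (-0.45) were called lower, Gga2 (0.40) and Snx17 (0.41) higher, and Gga1 (-0.11) was not called. Hmox1, which degrades the haem taken up by Cd163, fell from 152 ± 5.93 to 90.8 ± 6.94 CPM (log2 fold change -0.74, edgeR FDR = 1.95e-07). Mertk and Sphk1, tied to Msr1, and Pdzk1, the adaptor of Scarb1, had at most 3 counts in any library and were not detected.

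Transcription factors known to act on these receptors were also counted. Of 16 listed, 14 were tested, 9 were called higher and 1 lower, against the 28.8% and 28.6% of all genes tested, with a median log2 fold change of 0.30. The 4 DEGs all rose, beside 9.46% of all genes tested that were DEGs higher in shTrem2, and 3 of them are described. Klf4, a zinc-finger factor of monocytes and macrophages, went from 9.24 ± 0.795 to 27.7 ± 5.18 CPM (log2 fold change 1.59, edgeR FDR = 3.04e-07). Nr1h3, the oxysterol receptor LXR alpha, went from 1.74 ± 0.0703 to 5.09 ± 0.709 CPM (1.55, edgeR FDR = 2.43e-05), and its dimer partner Rxra from 1.24 ± 0.243 to 3.26 ± 0.416 CPM (1.39, edgeR FDR = 3.59e-04; SD, n = 3 each). Pparg, a factor that induces Cd36, had 0 or 1 count in each library, and Maf had 0 in all 6, so that neither was detected.

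**Figure D4:**
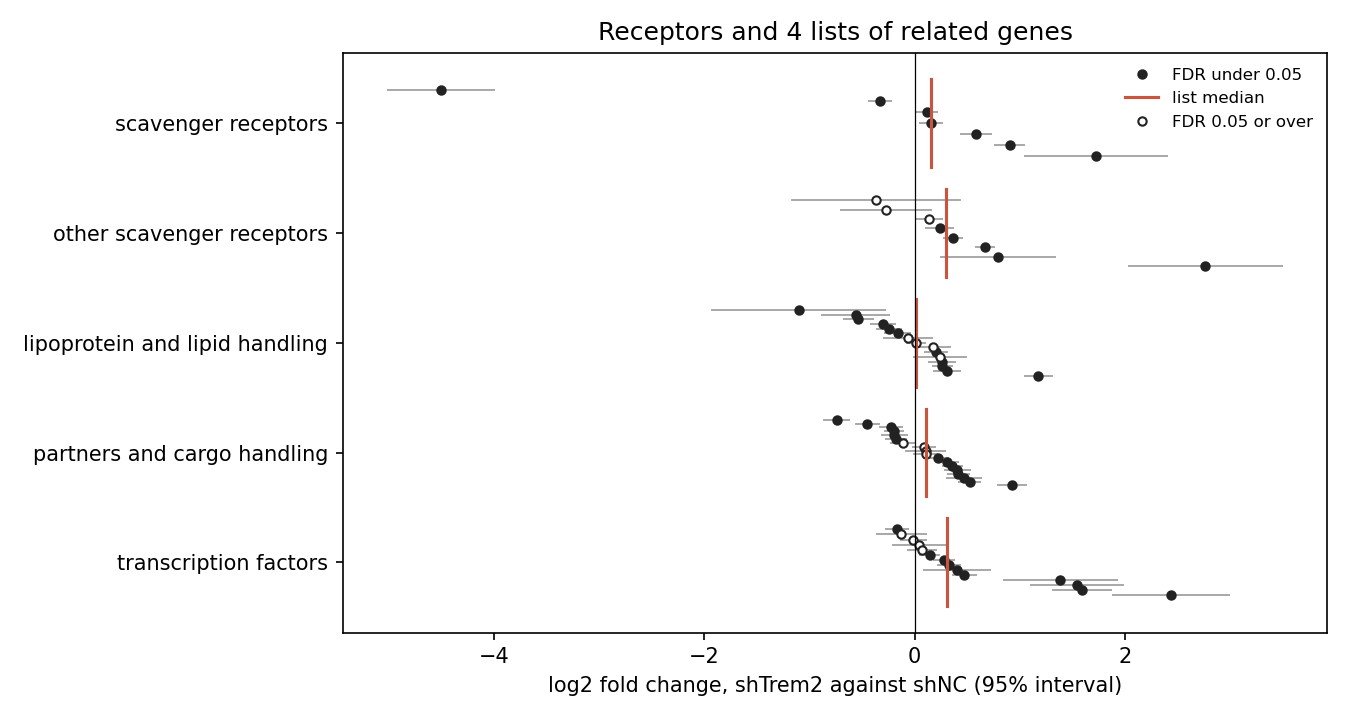
Log2 fold change of shTrem2 against shNC with its 95% interval from edgeR for each tested gene of the scavenger receptors (7) and of the 4 related lists (8, 15, 18 and 14 genes, of which Mrc1 is also an IL-4 marker and Spi1 a macrophage marker). Filled points have FDR under 0.05, open points do not, and the red line is the median of each list; Stab1 is the point farthest to the left.

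Some receptors are also made by other cell types, so markers of tubular epithelium, whose debris was added to both groups, and of endothelium and fibroblasts, which the culture should lack, were counted. Of 14 tubular epithelial markers, 8 had 0 counts in all libraries, among them Epcam, Cdh1, Krt8 and Krt18, and 1 was tested. That gene was Aqp1, a water channel, which was called higher, from 0.451 ± 0.257 to 2.20 ± 0.356 CPM (SD, n = 3 each), with at most 50 counts in a library. It too passed the filter through its shTrem2 libraries, as 1 of 3 shNC libraries reached 0.534 CPM. The list's summed level was 0.666 to 1.24 CPM in shNC and 2.27 to 2.93 CPM in shTrem2, a difference carried by Aqp1, while Lrp2 had 6, 5 and 8 counts in shNC and 3, 3 and 2 in shTrem2 and was not tested. The part of these markers in the receptors' differences was not tested. Of 8 endothelial markers, 2 were tested and neither was called, Cdh5 had at most 9 counts and Emcn had 0, and the summed level was 6.93 to 8.93 CPM in shNC and 6.10 to 8.20 CPM in shTrem2. Of 6 fibroblast markers, 4 had 0 counts in all libraries, 1 was tested and not called, and the summed level stayed at or below 1.08 CPM.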

How the data were processed

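RNA of RAW264.7 cells was sequenced in 6 libraries, 3 shNC and 3 shTrem2, and the groups follow the genotype given in the labels. Libraries were stranded, poly(A)-selected and paired-end. Per the submitters' processing notes and methods, reads were trimmed by the authors (fastp), mapped to GRCm39 (HISAT2) and assembled into transcripts (StringTie); the counting tool and annotation release are not given in the sources used here. The authors deposited estimated counts per transcript, without depth scaling (79.3% of nonzero values not whole), and FPKM per gene; the deposited group means were not used.

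For each symbol, the counts of its rows were added and rounded. Rows without a symbol (0.908% to 1.12% of counts) were left out. Tests used edgeR 4.0.16 in R 4.3.3 (TMM, filterByExpr, quasi-likelihood test, Benjamini-Hochberg adjustment, no covariate). They were also run on simulated counts, in which far fewer genes changed than the 57.4% called here. That run does not check them in this setting. No 2 libraries held identical values. Alternatives used limma 3.58.1, DESeq2 1.42.0, other scalings and filters, pseudocounts of 1 and 0.1, thinned counts, a replicate block and leaving out each library. Transcript rows carry no identifier and were matched to GENCODE M21 transcripts (GRCm38) by length: a row was matched where the best order of transcripts rebuilt the FPKM within 2% and no order within 2% gave that row another transcript. Testing rows was chosen after seeing the data. Counts behind each value limit precision, and PCR copies are not independent molecules.

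Named genes were all 10 receptors, Trem2, up to 3 DEGs per direction in each related list, partners of called receptors, and the 5 genes nearest to the receptor with the largest change. Pparg, Maf, Nt5dc2, Spi1 and the single markers of macrophages, IL-4 and other cell types fall outside this rule and were named after their values were seen. Values of some listed genes are not reported here. The receptors and lists were chosen with earlier results of these data known. All coordinates are GRCm38.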

Additional observations from a re-analysis of the deposited data

How the results depend on the processing

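The number of receptors called was 7 and lay between 5 and 7 in all but 1 of 18 alternatives; requiring at least 10 counts in every library left 4 called and 1 DEG of 3, because that filter removes Stab1 and Cd36, and Cd68 was not called there. Leaving out 1 library gave 5 to 7 called and 3 to 4 DEGs. No receptor changed sign on gene sums. Stab1, Cd36, Msr1, Scarb2 and Colec12 were called in every alternative that kept them, Scarb1 in 10 of 18 and Cd68 in 6 of 18. Tested as single transcript rows, Cd68-202 (-0.25), Msr1-204 (0.55), Msr1-205 (0.30) and a pair of unmatched Scarb1 rows (-0.20 and -0.24) had the opposite sign to their gene, and none of these 5 was called; the cause was not tested. In FPKM in place of CPM, the log2 ratio of group means was -5.64 against -4.52 for Stab1, 1.26 against 1.74 for Cd36 and -0.15 against -0.33 for Msr1. Trem2 was lower in all 18 alternatives, at -2.06 and -2.08 on the log2(FPKM + 1) and log2(FPKM + 0.1) scales and -0.996 to -0.77 without 1 library. The counts for the 4 related lists moved by at most 1 under other scalings. The replicate numbers do not pair the samples, since the deviations of same-numbered libraries correlated at 0.01, 0.00 and 0.01; with the replicate block 7 receptors were called and 3 were DEGs. Counts limit Cd36, Stab1 in shTrem2 and Olr1.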

Other observations

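Cd5l, a secreted macrophage protein of the same cysteine-rich family as Cd163, was picked out after its values were seen. It had 7, 13 and 11 counts in shNC and 0, 1 and 1 in shTrem2, without overlap, but did not pass the filter on low counts and was not tested. Scara5, Megf10 and Vldlr, further receptors for debris or lipoproteins, had 0 counts in all 6 libraries, and Stab2, the closest relative of Stab1, had at most 1.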
